A study of Oryctolagus cuniculus with 34 samples.

Results

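Fibrillar collagens are the proteins that assemble into the banded fibrils of tendon, skin and the connective tissue of muscle. The 7 genes COL1A1, COL1A2, COL3A1, COL5A1, COL5A2, COL5A3 and COL11A1 were taken by name from the 18176 genes of the deposited count files. All 7 were in the files and passed the filter on low counts in each of the fits. The data are 34 bulk RNA-seq libraries of rabbit supraspinatus, one of the rotator cuff muscles around the shoulder joint.

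The libraries formed 6 groups. The long-term groups were 5 repaired muscles that also received a gel of extracellular matrix obtained from tissue (gel), 5 muscles with a repair and no gel (repair only) and 10 uninjured muscles. The short-term groups were 5 muscles with the gel, 5 with repair only and 4 with the injury only. The labels give no strain, age, sex or length of either term, and none of the tissue that the gel came from. They do not state that the samples of a group came from separate animals. Codes in the names of the files do differ within groups, but p-values measure only the spread between these samples, which may in part be technical. The codes also link each of the 10 long-term operated muscles to 1 uninjured muscle.

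COL1A1 and COL1A2 encode the α1 and α2 chains of type I collagen, the main component of the fibrils of tendon and of mature scar. COL3A1 encodes type III collagen, which is built from identical chains, mixes with type I in soft tissues and is abundant in early repair tissue. COL5A1 and COL5A2 encode the usual chains of type V collagen, a minor component that starts fibril assembly and limits fibril diameter, and COL5A3 encodes a further type V chain. COL11A1 encodes a chain of type XI collagen, the counterpart of type V in cartilage. In skeletal muscle these genes are transcribed mainly by fibroblasts, fibro-adipogenic progenitors and tenocytes. In bulk tissue, fewer of these cells and less collagen RNA per cell cannot be told apart.

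The totals were 12582302 to 15019158 counts in the 20 long-term libraries and 26904529 to 32313295 counts in the 14 short-term libraries, so that term and depth cannot be told apart. Levels are given as counts per 1000000 counts of the library (CPM) and describe 1 gene across libraries. They are not compared between genes, because transcript lengths were not used. Markers of skeletal muscle fibres, of which 7 of 10 were in the files, summed to between 62856 and 189239 CPM, and none was at 0 in any library.

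Single libraries set much of the spread of all 7 genes. Among the short-term repair-only libraries, replicate 5 was the highest and replicate 4 the lowest for 7 of 7 genes. The 7 genes together took 30784, 11304, 12068, 599.3 and 117384 CPM in replicates 1 to 5 of that group, a range of 196-fold. Among the injury-only libraries, replicate 3 was the highest for 7 of 7 genes, with a sum of 10627 CPM, while the other 3 had 744, 995 and 1476 CPM.

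The sum ranged 3.39-fold among the short-term gel libraries (3507 to 11898 CPM). In the long term it ranged 1.61-fold among the gel libraries (549 to 882 CPM), 3.94-fold among the repair-only libraries (525.8 to 2074 CPM) and 5.25-fold among the uninjured libraries (265 to 1392 CPM). Uninjured replicate 8 was the highest of its group for 6 of 7 genes, and long-term repair-only replicate 2 was the lowest of its group for 6 of 7.

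**Figure D1:**
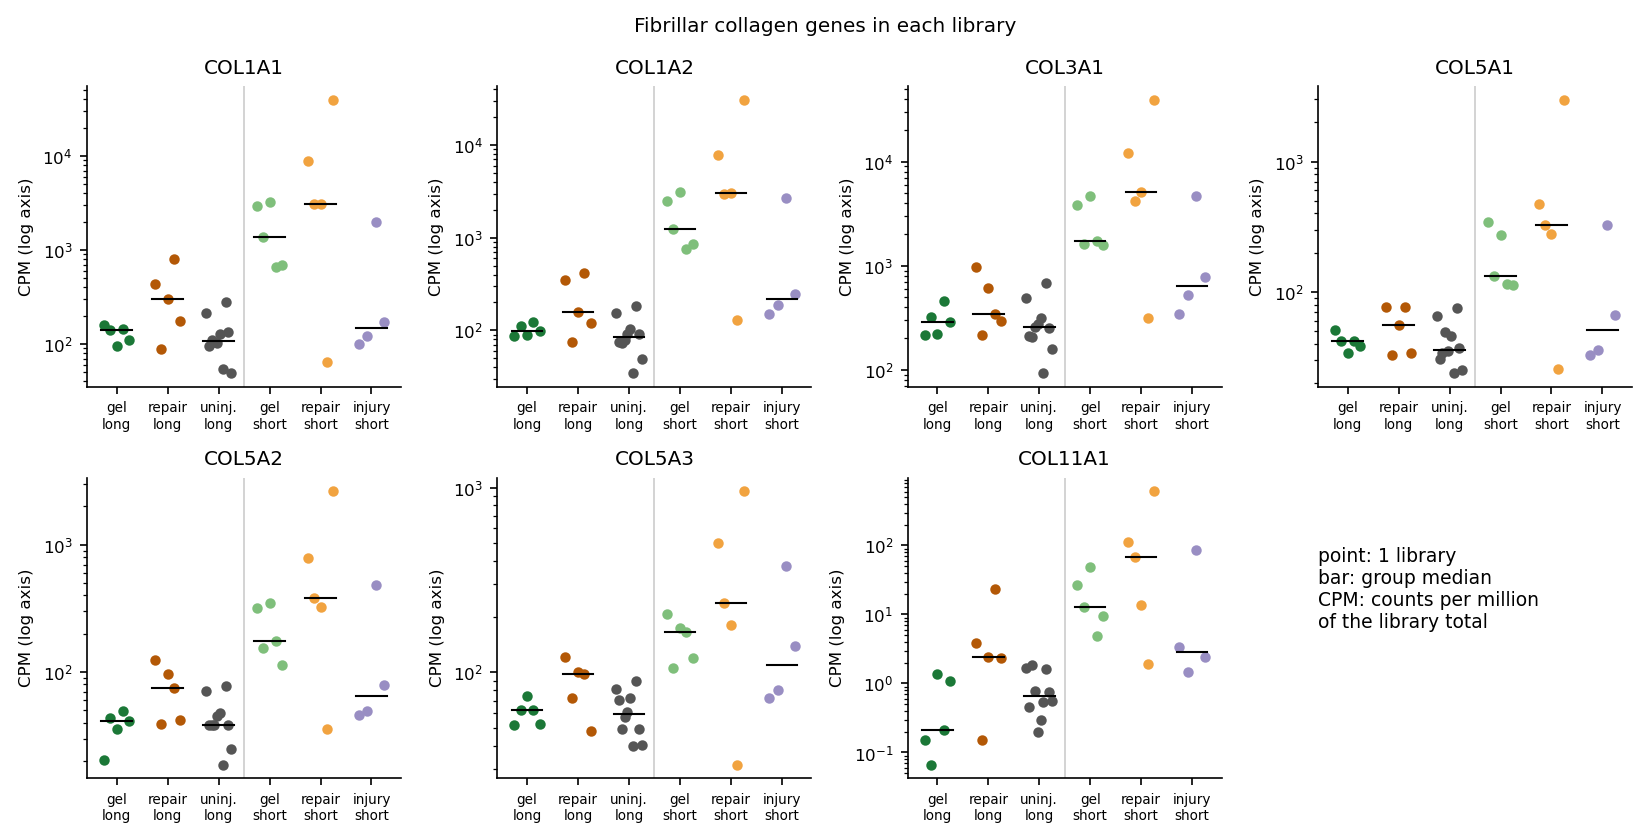
Level of each of the 7 fibrillar collagen genes in each of the 34 libraries, in CPM on a log axis, by group, with the 3 long-term groups on the left and the 3 short-term groups on the right of each panel. A point is 1 library and a bar is the group median; COL1A1 lay between 94.5 and 158 CPM in the long-term gel libraries and between 65.0 and 39744 CPM in the short-term repair-only libraries.

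For each of the 7 genes the short-term repair-only group had the highest median and the short-term gel group the next. The median of COL1A1 was 3119 CPM in short-term repair-only muscle and 1373 CPM in short-term gel muscle. It was 301 CPM in long-term repair-only, 146 CPM in injury-only, 143 CPM in long-term gel and 107 CPM in uninjured muscle. Uninjured muscle had the lowest median of 6 of the 7 genes, and for COL11A1 long-term gel muscle did, with 0.212 CPM against 0.657 CPM in uninjured muscle. In this order of medians the ranges of neighbouring groups overlapped for all genes and steps, except for COL5A1 between short-term gel and long-term repair-only muscle. Its lowest short-term gel library (112 CPM) lay above its highest long-term repair-only library (77.2 CPM). These groups differ in both treatment and term, and the share of all genes without overlap was not computed for them.

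The first comparison set the gel against repair only in the long term and asks what the gel added to a repair (5 libraries each). All 7 genes had fitted values below 0, where 46.3% of all genes had values above 0, and their median log2 difference was -0.83 against -0.03 over all genes. In edgeR's quasi-likelihood test 0 of 7 genes passed an adjusted p of 0.05, as did 0% of 11605 genes. At an unadjusted p under 0.05, 4 of 7 had lower values with the gel, against 6.32% of all genes. DESeq2 called 0 of 7, and so did limma's voom with sample weights.

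COL1A1 measured 158, 143, 94.5, 146 and 111 CPM in the gel libraries and 434, 89.5, 301, 799 and 174 CPM in the repair-only libraries. The gel libraries lay close together, with repair-only replicate 2 below all 5 of them and the other 4 repair-only libraries above. The means were 130 ± 26.6 CPM in gel-treated muscle and 360 ± 278 CPM in muscle with repair only (SD, n = 5 each), and the fitted log2 difference was -1.29 (SE 0.45, adjusted p = 0.302). Without repair-only replicate 4 it was -0.71.

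Its partner chain COL1A2 had 87.4, 111, 88.0, 124 and 97.7 CPM in the gel libraries and 349, 75.0, 160, 412 and 121 CPM in the repair-only libraries. As for COL1A1, repair-only replicate 2 lay below the gel libraries and replicates 1, 3 and 4 above them. The log2 difference was -0.98 (SE 0.38, adjusted p = 0.304), and -0.59 without repair-only replicate 4.

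COL3A1 had 214.5, 321, 222, 459 and 288 CPM in the gel libraries and 965, 217, 608, 342 and 292 CPM in the repair-only libraries. Here replicate 4, the highest repair-only library for both type I chains, lay among the gel libraries, and replicates 1 and 3 alone were above all of them. Its fitted log2 difference was -0.50 (SE 0.38, adjusted p = 0.528), and -0.16 without repair-only replicate 1.

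Among the type V genes, COL5A2 had 20.3, 43.8, 35.6, 49.1 and 41.2 CPM in the gel libraries and 124, 38.8, 96.5, 75.3 and 41.9 CPM in the repair-only libraries, a log2 difference of -0.83 (SE 0.30, adjusted p = 0.302). COL5A1 averaged 41.5 ± 6.40 CPM after gel treatment and 55.5 ± 21.9 CPM after repair only, a log2 difference of -0.24 (SE 0.27, adjusted p = 0.662). COL5A3 lay between them at -0.37 (SE 0.20, adjusted p = 0.396). The ranges of the groups overlapped for all 3 genes.

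COL11A1 had the lowest counts of the 7 genes. The gel libraries held 2, 1, 19, 3 and 14 counts of it and the repair-only libraries 51, 2, 32, 318 and 30 counts. Repair-only replicate 4 held more COL11A1 counts than the other 9 libraries of the comparison together, and replicate 2 held as few as the low gel libraries. The log2 difference was -3.38 (SE 0.88, adjusted p = 0.302), and -1.74 without repair-only replicate 4.

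Cell type markers were read beside these values. The tenocyte markers, of which 6 of 8 were in the files, summed to 37.8 to 90.2 CPM in the gel libraries and to 161, 38.6, 101, 726 and 94.2 CPM in repair-only replicates 1 to 5. In edgeR 0 of the 4 tenocyte markers tested passed, with 4 of 4 below 0 (median log2 difference -2.38), and up to 1 of the 6 was at 0 in a library. Of 5 adipocyte markers 0 passed and 5 were below 0 (median -1.09), of 7 fibroblast and fibro-adipogenic markers 0 passed and 6 were below 0 (median -0.57), and of 4 macrophage markers 0 passed and 4 were below 0 (median -0.67). Other lists went the other way, with 0 passed. Above 0 were 5 of 7 muscle fibre markers (median 0.25), 4 of 6 smooth muscle and pericyte markers (median 0.11) and 4 of 5 Schwann cell markers (median 0.17). Of 4 endothelial markers 0 passed and 3 were below 0 (median -0.08). Cartilage and bone markers summed to 13.8 to 19.5 CPM in the gel libraries. In the repair-only libraries they summed to 13.3, 31.9 and 81.4 CPM at the lowest, median and highest, the highest being replicate 4 again. The fibrillar collagen gene COL2A1, described separately below, is among these markers, so the sum is not independent of it. The part of these cell types in the collagen values was not tested.

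Repair only was then set against uninjured muscle, also in the long term (5 and 10 libraries). COL11A1 rose and was the single gene of the 7 past the threshold, beside 1.01% of 11605 genes called. It measured 3.83, 0.153, 2.42, 23.6 and 2.35 CPM in the repair-only libraries and 0.2001, 0.657 and 1.83 CPM at the lowest, median and highest of the uninjured libraries. Of the repair-only libraries, 4 lay above every uninjured library and replicate 2 lay below all of them.

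The log2 difference of COL11A1 was 2.92 (SE 0.66, adjusted p = 0.0328). With the animal code as a replicate block it was 2.34 (adjusted p = 0.62), and edgeR then called 0 of 7 genes. The call was lost in 10 of the 15 fits that left out 1 library, among them the one without repair-only replicate 4, where the value was 1.28. DESeq2 called 3 of 7 genes, beside 2.02% of all genes, the type I genes being added, and voom called 0 of 7.

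COL1A1 measured 434, 89.5, 301, 799 and 174 CPM in the repair-only libraries and 48.96, 107 and 279 CPM at the lowest, median and highest of the uninjured libraries. Repair-only replicates 1, 3 and 4 were above every uninjured library. The fit gave a log2 difference of 1.49 (SE 0.37, adjusted p = 0.0528), and 0.91 (adjusted p = 0.366) without repair-only replicate 4. Without replicate 2, the lowest repair-only library for 6 of 7 genes, COL1A1 passed in edgeR at 1.74 (adjusted p = 0.00689). That fit called 3 of 7 genes beside 2.72% of all. Leaving out this library widens the difference by construction, so these values are given as descriptions only.

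COL1A2 had 349, 75.0, 160, 412 and 121 CPM in the repair-only libraries and 34.5, 84.2 and 185 CPM at the lowest, median and highest of the uninjured libraries. Replicates 1 and 4 lay above all uninjured libraries, and the other 3 lay within their range. The log2 difference was 1.24 (SE 0.32, adjusted p = 0.0593).

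COL3A1 averaged 485 ± 306 CPM after repair only (SD, n = 5) and 294 ± 172 CPM in the uninjured libraries (SD, n = 10), a log2 difference of 0.68 (SE 0.32, adjusted p = 0.426). The type V genes had differences of 0.74 for COL5A2 (SE 0.25, adjusted p = 0.208), 0.49 for COL5A3 (SE 0.17, adjusted p = 0.229) and 0.38 for COL5A1 (SE 0.23, adjusted p = 0.566). At an unadjusted p under 0.05, 6 of 7 genes were higher after repair only, COL5A1 being the exception, against 7.85% of all genes.

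Tenocyte markers summed to 38.6 to 726 CPM in the repair-only libraries and 28.5 to 100.2 CPM in the uninjured libraries. The 726 CPM were those of replicate 4, and the other repair-only libraries had 38.6 to 161 CPM. Of the 4 tested 4 rose, with a median log2 difference of 2.496, beside 1.01% of all genes called. Of the 7 fibroblast and fibro-adipogenic markers, 1 rose (median 0.65), with sums of 494.5 to 1352 CPM after repair only and 224 to 766.5 CPM in uninjured muscle. Of 5 adipocyte markers 4 rose (median 1.78), with sums of 196 to 1119 CPM after repair only and 148 to 298 CPM in uninjured muscle, and of 4 macrophage markers 0 passed in edgeR, with 4 above 0 (median 1.06). In other lists 0 passed. Below 0 were 4 of 7 muscle fibre markers (median -0.02), 4 of 6 smooth muscle and pericyte markers (median -0.07) and 3 of 4 endothelial markers (median -0.02). Of 5 Schwann cell markers 5 were above 0 (median 0.23). The marker calls were not checked with the animal code as a block or without replicate 4. The part of these cell types in the collagen values was not tested here either.

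The animal codes allow each operated muscle to be set against the uninjured muscle of the same code. In CPM after repair only, COL1A2, COL3A1 and COL5A2 were above their own uninjured muscle in 5 of 5 animals. COL1A1, COL5A1, COL5A3 and COL11A1 were above it in 4 of 5. The share of all genes above in 5 of 5 animals was not computed. The size differed widely, with log2 differences in CPM of 1.02, -0.09, 1.56, 3.87 and 0.36 for COL1A1 in replicates 1 to 5. The highest value joined the highest repair-only library (799 CPM) to an uninjured muscle of 54.8 CPM, the library with the lowest level of 5 of the 7 genes among the uninjured.

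COL11A1 followed with 1.20, -1.37, 3.397, 5.34 and 1.58 in the same animals. Replicate 2 was below its own uninjured muscle for COL1A1 and COL11A1. It was above it by 0.02 for COL1A2, 0.04 for COL3A1 and 0.01 for COL5A2. These CPM values lack the TMM scaling of the edgeR fits. The TMM factor was 0.9621 for repair-only replicate 2 and 0.9296 for its uninjured muscle. With these factors applied, replicate 2 falls below its own uninjured muscle for COL1A2, COL3A1 and COL5A2 as well. The 5 of 5 counts rest on these small margins and do not hold with that scaling. In gel-treated muscle the log2 difference of COL1A1 to the own uninjured muscle was 0.52, 0.45, -0.45, -0.93 and 1.18, so that 3 of 5 animals were above. Over the 7 genes, 2 to 4 of 5 gel-treated muscles were above their own uninjured muscle. The mean for COL1A1 was 0.15 ± 0.84 with the gel and 1.34 ± 1.55 with repair only (SD, n = 5 each).

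**Figure D2:**
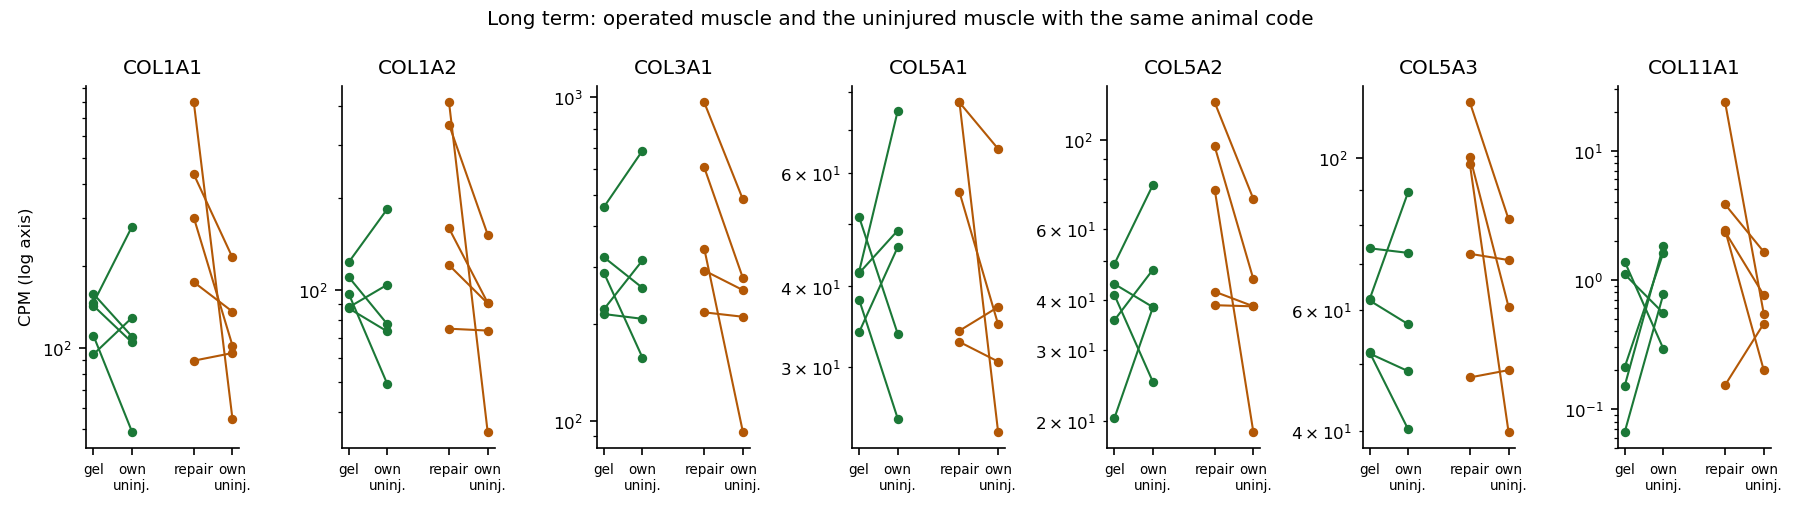
CPM on a log axis of each gene in the long-term operated muscle and in the uninjured muscle with the same animal code, joined by a line, for the gel and for repair only. In 5 of 5 repair-only animals the operated muscle is the higher one for COL1A2, COL3A1 and COL5A2. In replicate 2 the margin is 0.01 to 0.04 on the log2 scale, without TMM scaling. With the TMM factors applied, replicate 2 falls below its own uninjured muscle for these genes. The gel lines run both ways.

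Long-term gel-treated muscle was set against the uninjured libraries as well (5 against 10). The 7 genes differed by -0.46 to 0.27 on the log2 scale, and 0 of 7 passed in edgeR, where 0.00862% of all genes did. At an unadjusted p under 0.05 there were 0 of 7, beside 8.94% of all genes higher and 4.9% lower, and DESeq2 and voom called 0 of 7 as well. COL1A1 averaged 130 ± 26.6 CPM after gel treatment (SD, n = 5) and 127 ± 70.5 CPM in the uninjured libraries (SD, n = 10), a log2 difference of 0.20 (SE 0.38, adjusted p = 0.802). COL3A1 averaged 301 ± 99.0 CPM after gel treatment and 294 ± 172 CPM in the uninjured libraries, a difference of 0.18 (SE 0.33, adjusted p = 0.804). For both genes all 5 gel libraries lay inside the uninjured range. COL11A1 had the value farthest from 0, at -0.46 (SE 0.84, adjusted p = 0.797). This comparison and the one on repair only share their uninjured libraries.

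In the short term, the gel was set against repair only (5 libraries each). The 7 genes had log2 differences of -2.73 to -0.996, where 45.7% of all genes had values above 0, and their median was -1.92 against -0.04 over all genes. In edgeR 0 of 7 passed, as did 0% of 13526 genes. At an unadjusted p under 0.05, 3 of 7 were lower with the gel (COL1A2, COL3A1 and COL11A1), against 4.73% of all genes, and DESeq2 and voom called 0 of 7.

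COL1A1 measured 2956, 1373, 3227, 652 and 696 CPM in the gel libraries and 8866, 3101, 3119, 65.0 and 39744 CPM in the repair-only libraries. The gel libraries lay inside the repair-only range, which reached both above and below them. Its fitted log2 difference was -2.36 (SE 1.11, adjusted p = 0.481), and -0.79 without repair-only replicate 5.

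COL3A1 had 3867, 1616, 4677, 1718 and 1600 CPM in the gel libraries and 12189, 4237, 5122, 312 and 39469 CPM in the repair-only libraries. Again 1 repair-only library lay below all gel libraries, and replicates 1, 3 and 5 lay above all of them. The log2 difference was -1.92 (SE 0.86, adjusted p = 0.472), and -0.73 without repair-only replicate 5.

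The other type I gene, COL1A2, differed by -2.14 (SE 0.995, adjusted p = 0.481). The type V genes differed by -1.80 for COL5A1 (SE 0.85), -1.64 for COL5A2 (SE 0.77) and -0.996 for COL5A3 (SE 0.55), at adjusted p-values of 0.485, 0.485 and 0.546 in edgeR. COL11A1 had 26.4, 12.9, 48.9, 4.88 and 9.59 CPM in the gel libraries and 111, 67.7, 13.6, 1.93 and 611 CPM in the repair-only libraries, a log2 difference of -2.73 (SE 1.25, adjusted p = 0.48). Without repair-only replicate 5 the values of COL5A1 and COL11A1 were -0.23 and -0.95. Tenocyte markers summed to 190 to 389.5 CPM in the gel libraries and to 45.6 to 1359 CPM in the repair-only libraries, and their part in these values was not tested.

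Repair only was set against injury only in the short term (5 against 4 libraries). All 7 genes had fitted values above 0, as had 51.7% of all genes, with a median log2 difference of 2.78 against 0.02 over all genes. In edgeR 0 of 7 passed, as did 0% of 13526 genes, and at an unadjusted p under 0.05, 5 of 7 were higher after repair, against 9.5% of all genes. The tools differed here. DESeq2 called 3 of 7 genes (COL1A1, COL1A2 and COL3A1) beside 1.71% of all, and voom called 6 of 7, all but COL5A3, beside 33.4% of all.

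COL1A1 had 8866, 3101, 3119, 65.0 and 39744 CPM in the repair-only libraries and 99.2, 122, 1973 and 170 CPM in the injury-only libraries. Repair-only replicate 4 lay below all 4 injury-only libraries, and the other 4 repair-only libraries lay above all of them, the nearest being injury-only replicate 3. The fit gave a log2 difference of 4.12 (SE 1.32, adjusted p = 0.322), 5.56 without injury-only replicate 3 and 2.53 without repair-only replicate 5.

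COL1A2 differed by 3.36 (SE 1.15), COL3A1 by 2.78 (SE 0.97), COL5A1 by 2.63 (SE 0.96) and COL5A2 by 2.15 (SE 0.85), each at an adjusted p of 0.322 in edgeR. COL11A1 differed by 2.78 (SE 1.37, adjusted p = 0.354). COL5A3 had the smallest value, 0.86 (SE 0.59, adjusted p = 0.449), and 0.13 without repair-only replicate 5. Without both injury-only replicate 3 and repair-only replicate 4, edgeR called 7 of 7 genes beside 33.3% of all genes, with 5.88 for COL1A1 and 1.45 for COL5A3. These are the injury-only library with the highest and the repair-only library with the lowest level of 7 of 7 genes, so leaving them out widens the difference by construction and the count supports nothing about the groups.

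The same libraries stood apart in cell type markers. Fibroblast and fibro-adipogenic markers, of which 7 of 8 were in the files, summed to 4778, 2178, 2201, 536 and 4030 CPM in short-term repair-only replicates 1 to 5, and to 383, 474.5, 3497 and 829.1 CPM in injury-only replicates 1 to 4. Tenocyte markers summed to 1162, 1359, 314.5, 45.6 and 1201 CPM in the repair-only libraries and to 66.7, 52.2, 1685 and 110.5 CPM in the injury-only libraries. The larger part of each tenocyte sum was the marker THBS4, with 1082 CPM in repair-only replicate 5. In edgeR 0 of 6 tenocyte markers passed, with 3 above 0 and 3 below (median log2 difference 0.18). Of 7 fibroblast and fibro-adipogenic markers 0 passed and 7 were above 0 (median 0.75). Repair-only replicate 4, the lowest for all 7 collagens, was also the lowest of its group for both sums, and injury-only replicate 3 the highest of its group for both. The part of cell composition in these differences was not tested.

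Gel-treated muscle was set against injury only in the short term (5 against 4 libraries). The log2 differences ran from -0.13 for COL5A3 (SE 0.58, adjusted p = 0.927) to 1.76 for COL1A1 (SE 1.18, adjusted p = 0.442). In edgeR 0 of 7 genes passed, as did 0% of all genes, and 0 of 7 had an unadjusted p under 0.05, beside 9.83% of all genes higher and 8.6% lower. DESeq2 called 0 of 7, and voom called 5 of 7 beside 27% of all genes.

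COL1A1 had 2956, 1373, 3227, 652 and 696 CPM in the gel libraries and 99.2, 122, 1973 and 170 CPM in the injury-only libraries. All 5 gel libraries lay above injury-only replicates 1, 2 and 4, and replicate 3 lay among them. Without replicate 3 the log2 difference of COL1A1 was 3.21 (adjusted p = 0.122). That of COL11A1, otherwise 0.06 (SE 1.25, adjusted p = 0.988), was then 2.47 (adjusted p = 0.213). Without both injury-only replicate 3 and repair-only replicate 4, edgeR called 2 of 7, COL1A1 and COL1A2, beside 18.9% of all genes. Injury-only replicate 3 had the highest collagen values of its group, so values without it are larger by construction and are given as descriptions only.

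**Figure D3:**
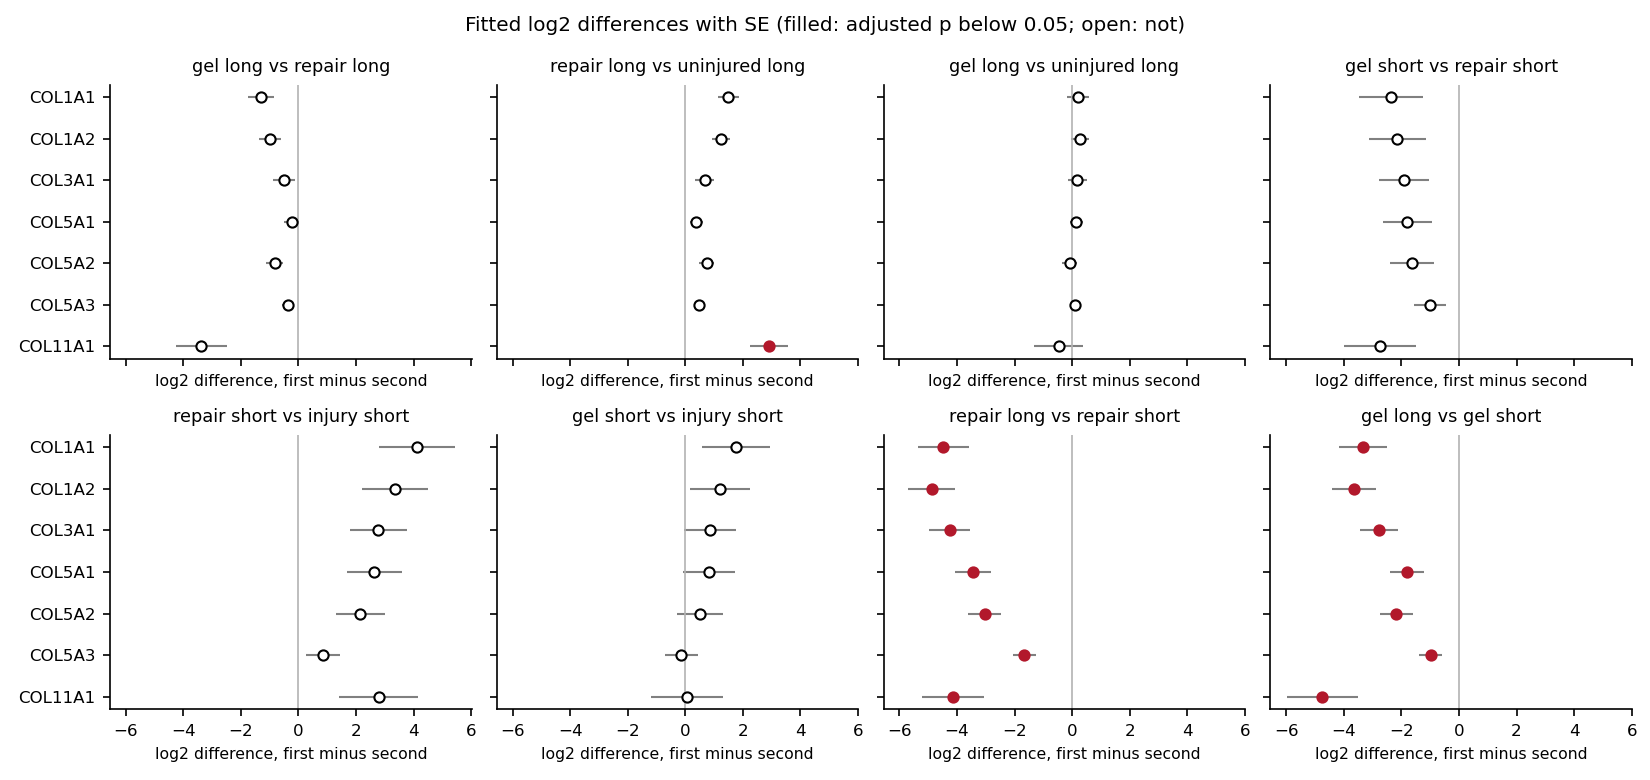
Fitted log2 differences of the 7 genes in the 8 comparisons, first group minus second, with standard errors as horizontal lines; filled points passed an adjusted p of 0.05 and open points did not. The filled points are COL11A1 in long-term repair only against uninjured muscle (2.92) and 7 of 7 genes in both comparisons of the long with the short term.

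The long term was set against the short term within each treatment, in a fit of all 34 libraries. After repair only, 7 of 7 genes fell, beside 46.2% of 12935 genes called in either direction and 27.9% called lower. With the gel, 7 of 7 fell as well, beside 48.3% called in either direction and 26.5% lower. All libraries of a term share its depth, so a difference in time and one in sequencing cannot be told apart. Cell type markers fell and rose beside the collagens. After repair only, 4 of 7 fibroblast and fibro-adipogenic and 4 of 5 macrophage markers fell. Of 6 tenocyte markers 2 fell, near the 27.9% of all genes called lower, and 3 were above 0 (median log2 difference -0.24). Of 7 muscle fibre markers 3 rose, beside the 46.2% of all genes called in either direction. With the gel 4 of 7 fibroblast and fibro-adipogenic, 5 of 5 macrophage and 3 of 6 tenocyte markers fell. Of 7 muscle fibre markers 3 rose there, beside 48.3% of all genes called in either direction. Of 5 adipocyte markers 0 fell after repair only in edgeR and 1 fell with the gel. The part of these cell types in the collagen differences was not tested.

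COL1A1 measured 434, 89.5, 301, 799 and 174 CPM in long-term repair-only muscle and 8866, 3101, 3119, 65.0 and 39744 CPM in short-term repair-only muscle. The groups overlapped through the lowest short-term library, replicate 4. The log2 difference was -4.47 (SE 0.89, adjusted p = 0.000196), and -2.89 without short-term replicate 5. COL1A2 had -4.88 (SE 0.81, adjusted p = 2.04e-05), COL3A1 -4.25 (SE 0.71, adjusted p = 2.13e-05) and COL11A1 -4.14 (SE 1.07, adjusted p = 0.00246).

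For the type V genes the log2 differences were -3.44 for COL5A1 (SE 0.64), -3.04 for COL5A2 (SE 0.59) and -1.66 for COL5A3 (SE 0.40, adjusted p = 0.00117). Without short-term replicate 5 all 7 still passed, with -2.35 for COL11A1 (adjusted p = 0.0482) and -1.86 for COL5A1. The ranges of the long- and short-term repair-only libraries overlapped for each of the 7 genes, while 10.9% of all genes were lower in the long term without overlap.

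With the gel the groups did not overlap for 7 of 7 genes, as was the case for 25.1% of all genes lower in the long term. COL1A1 had 158, 143, 94.5, 146 and 111 CPM in the long term and 2956, 1373, 3227, 652 and 696 CPM in the short term. Its fitted log2 difference was -3.34 (SE 0.85, adjusted p = 0.00182), and between -3.54 and -3.09 when 1 library was left out. COL3A1 had 214.5, 321, 222, 459 and 288 CPM in the long term and 3867, 1616, 4677, 1718 and 1600 CPM in the short term, a log2 difference of -2.77 (SE 0.66, adjusted p = 0.00105).

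COL1A2 differed by -3.66 (SE 0.76), COL5A2 by -2.18 (SE 0.57), COL5A1 by -1.81 (SE 0.60) and COL11A1 by -4.74 (SE 1.23), with adjusted p-values of 0.00028 to 0.013 in edgeR. COL5A3, with 51.9, 62.0, 73.9, 62.2 and 52.1 CPM in the long term and 208, 105, 172, 164 and 120 CPM in the short term, had the smallest difference of the 7. Its value of -0.98 (SE 0.39, adjusted p = 0.0377) no longer passed in 7 of the 10 fits that left out 1 of these libraries.

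Whether the difference between gel and repair only changed with term was tested directly, as the gel effect in the long term minus that in the short term. It was 1.13 for COL1A1 (SE 1.096, adjusted p = 0.704), 1.48 for COL3A1 (SE 0.88, adjusted p = 0.489) and 1.63 for COL5A1 (SE 0.82, adjusted p = 0.407). COL11A1 had the single value below 0, at -0.61 (SE 1.54, adjusted p = 0.913), and the other 3 genes had values of 0.68 to 1.22. In edgeR 0 of 7 genes passed, beside 0.0155% of all genes, and 0 of 7 had an unadjusted p under 0.05, beside 8.02% of all genes above 0 and 4.71% below. DESeq2 and voom called 0 of 7. Without short-term repair-only replicate 5 the COL1A1 value was -0.45.

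Ratios of counts within a library do not depend on depth or on the scaling of libraries. They are compared across libraries and are not ratios of molecules, since transcript length was not used. For 6 ratios and 8 comparisons, 48 exact 2-sided permutation tests were run on log2 ratios, and 0 passed after Benjamini-Hochberg adjustment over the 48. The smallest p that 5 libraries against 5 allow is 0.00794, and the smallest adjusted p was 0.0952.

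The ratio of COL1A1 to COL3A1, the genes of the main type I chain and of type III collagen, was 0.736, 0.444, 0.426, 0.319 and 0.385 in the long-term gel libraries. It was 0.450, 0.413, 0.495, 2.34 and 0.596 in the long-term repair-only libraries and 0.311, 0.427 and 0.590 at the lowest, median and highest of the uninjured libraries. Repair-only replicate 4 had the highest ratio of all 34 libraries, and the next was 1.01.

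In the short term the ratio was 0.765, 0.849, 0.690, 0.380 and 0.435 in the gel libraries. It was 0.727, 0.732, 0.609, 0.209 and 1.01 in the repair-only libraries and 0.291, 0.235, 0.419 and 0.221 in the injury-only libraries. Repair-only replicate 4 and injury-only replicates 4, 2 and 1 had the lowest ratios of all 34 libraries, and injury-only replicate 3 lay within the gel range. Geometric means were 0.594 with the gel, 0.584 with repair only and 0.282 with injury only.

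The log2 ratio of COL1A1 to COL3A1 differed by 1.07 between gel and injury only in the short term (5 against 4 libraries, exact permutation p = 0.0317, adjusted 0.152). Between repair only and injury only it differed by 1.05 (exact permutation p = 0.0794, adjusted 0.212). Between gel and repair only it differed by 0.02 in the short term and by -0.58 in the long term (exact permutation p = 0.968 and 0.31). Without long-term repair-only replicate 4 the long-term value was -0.13. The difference between repair only and uninjured muscle, 0.60 (exact permutation p = 0.121), was 0.14 without that library.

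**Figure D4:**
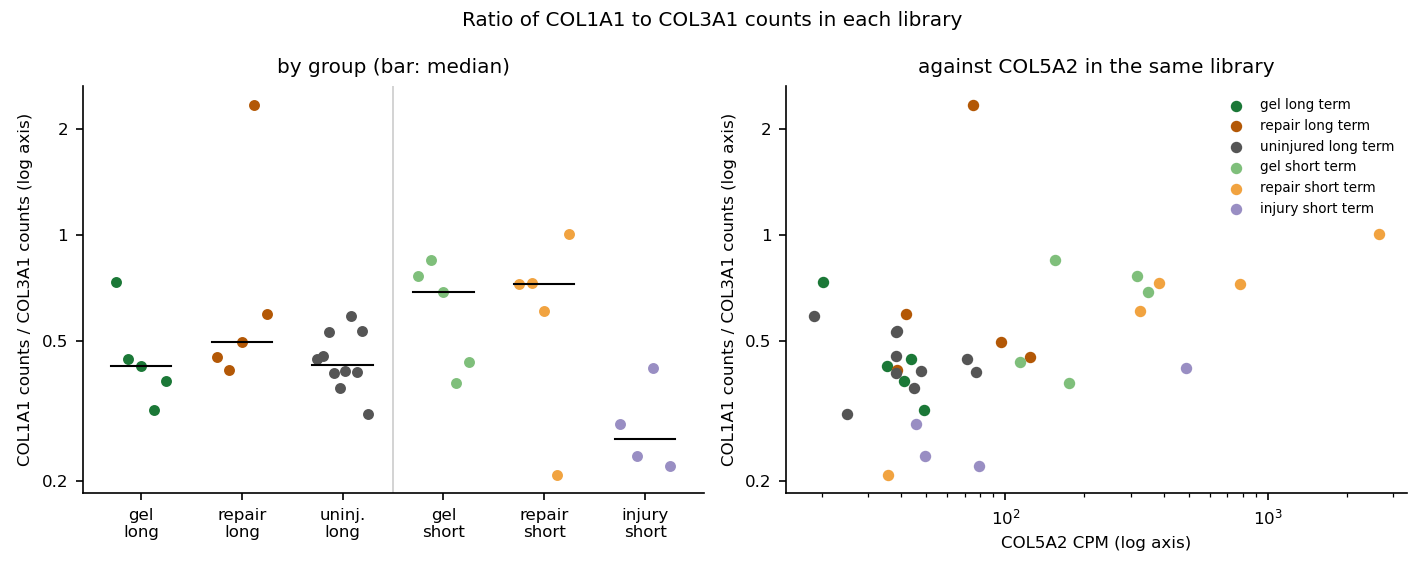
Ratio of COL1A1 to COL3A1 counts in each library on a log axis, by group with the median as a bar (left), and against the COL5A2 level of the same library in CPM on a log axis (right). Long-term repair-only replicate 4 stands at 2.34 with a COL5A2 level of 75.3 CPM, inside the COL5A2 range of its group.

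The ratio of COL1A1 to COL1A2, the genes of the type I chains, lay between 0.813 and 1.19 in the 5 short-term gel libraries and between 0.649 and 0.739 in the 4 injury-only libraries. These ranges did not overlap (log2 difference 0.53, exact permutation p = 0.0159, adjusted 0.152). Geometric means were 1.27 with the gel, 1.51 with repair only and 1.34 in uninjured muscle in the long term, and 0.99 with the gel and 0.955 with repair only in the short term.

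The minor chain COL5A1 relative to COL1A1 had a geometric mean of 0.321 with the gel, 0.187 with repair only and 0.351 in uninjured muscle in the long term. In the short term it was 0.122 with the gel, 0.108 with repair only and 0.281 with injury only. Long-term repair only against uninjured muscle gave a log2 difference of -0.91 (exact permutation p = 0.00533, adjusted 0.0952), with values of 0.0966 to 0.367 in 5 repair-only and 0.268 to 0.51 in 10 uninjured libraries. The long-term gel libraries did not overlap the short-term gel libraries, at 0.289 to 0.36 and 0.0844 to 0.176 (log2 difference 1.40, exact permutation p = 0.00794, adjusted 0.0952).

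COL5A3 relative to COL5A1 was 0.608 to 1.43 in the short-term gel and 0.320 to 1.23 in the short-term repair-only libraries, against 2.07 to 2.24 in injury-only replicates 1, 2 and 4 and 1.15 in replicate 3. In the long term its geometric mean was 1.46 with the gel, 1.62 with repair only and 1.498 in uninjured muscle. Long- and short-term repair-only libraries did not overlap, at 1.27 to 2.21 and 0.320 to 1.23 (log2 difference 1.16, exact permutation p = 0.00794, adjusted 0.0952).

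COL5A1 relative to COL5A2 was 2.53 in long-term gel replicate 1, which had the lowest COL5A2 level of its group (20.3 CPM), and 0.859 to 0.958 in the other 4. COL11A1 relative to COL5A1 did not overlap between the long- and short-term gel libraries, at 0.00238 to 0.0416 and 0.0427 to 0.18 (log2 difference -3.25, exact permutation p = 0.00794, adjusted 0.0952).

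The 7 genes were also followed among the 10 uninjured muscles alone. On the log2 scale COL1A1 correlated with COL1A2 at Pearson r = 0.960 and Spearman rho = 0.842, with COL3A1 at 0.939 and 0.806, with COL5A1 at 0.934 and 0.879, and with COL5A2 at 0.949 and 0.818. Over the 6 relations the permutation p for r adjusted to 0.00064 to 0.00096 for these 4 genes and that for rho to 0.00984 to 0.0111. COL5A3 was looser, with r = 0.848 and rho = 0.709 (adjusted permutation p = 0.00198 and 0.032). COL11A1, with 3 to 23 counts in these libraries, gave r = 0.504 and rho = 0.503 (adjusted permutation p = 0.138 and 0.142). Without replicates 8 and 10, farthest from the median of COL1A1, r was 0.963 for COL1A2, 0.946 for COL3A1, 0.882 for COL5A1, 0.939 for COL5A2, 0.707 for COL5A3 and 0.388 for COL11A1. Both genes of a relation come from the same library and share its depth and muscle content.

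The genes most alike to COL1A1, COL1A2, COL3A1, COL5A1 and COL5A2 were sought among 9523 genes, by the lower of their correlations with the mean log2 CPM of those 5 over the 14 short-term and the 20 long-term libraries, after centring on group means. They were the collagen cross-linking enzyme gene LOXL2 (r = 0.951 and 0.914), the secreted glycoprotein gene FSTL1 (0.972 and 0.903), the small GTPase gene RAB31 (0.973 and 0.902), the growth factor receptor gene FGFR1 (0.889 and 0.914) and the metalloproteinase inhibitor gene TIMP2 (0.941 and 0.889). COL5A3 gave 0.955 and 0.711, and COL11A1 gave 0.930 and 0.431. These are descriptions without a test.

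Other genes of fibril formation were followed in 7 lists: the other fibrillar collagens, fibril-associated collagens, enzymes of collagen folding and modification, enzymes of procollagen cleavage and cross-linking, partners of fibril assembly, collagen breakdown and uptake, and TGF-beta signalling to collagen genes. Between gel and repair only, edgeR called 0 of 74 tested in the long term, where 28 were lower and 3 higher at an unadjusted p under 0.05, beside the 6.32% of all genes lower. In the short term it called 0 of 82, with 22 lower and 0 higher, beside the 4.73% of all genes lower. The list medians ran from -1.31 (fibril-associated collagens, 5 of 5 below 0) to -0.10 (folding and modification, 12 of 17 below 0) in the long term. In the short term they ran from -1.17 (assembly partners, 16 of 16 below 0) to -0.04 (fibril-associated collagens, 4 of 8 below 0). After repair only against injury only 0 of 82 were called, with 36 higher and 0 lower at an unadjusted p under 0.05, beside the 9.5% of all genes higher.

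In long-term repair only against uninjured muscle, 11 of 74 rose, beside the 1.01% of all genes called. Of 16 assembly partners 6 rose, the small leucine-rich proteoglycan genes KERA (log2 difference 2.92, SE 0.58), FMOD (3.74, SE 0.83) and PRELP (1.75, SE 0.39) having the smallest adjusted p (0.0189, 0.0284 and 0.031 in edgeR); KERA and FMOD are also among the tenocyte markers. Single genes rose among 4 other fibrillar collagens (COL2A1, 1.59, SE 0.35), 5 fibril-associated collagens (COL12A1, 1.93, SE 0.40), 9 cleavage and cross-linking genes (the lysyl oxidase gene LOX, 1.43, SE 0.30), 9 breakdown genes (the collagen-degrading cathepsin gene CTSK, 0.93, SE 0.20) and 14 TGF-beta genes (the receptor gene TGFBR2, 0.85, SE 0.17). Of 17 folding and modification genes 0 passed in edgeR, with 5 higher at an unadjusted p under 0.05. The calls of these list genes were not checked with the animal code as a block or without repair-only replicate 4. COL11A1 lost its call in both of those settings. FMOD had 235 CPM in replicate 4 and 1.15 to 26.4 CPM in the other repair-only libraries. KERA had 22.8 CPM in replicate 4 and 0.46 to 8.93 CPM in the others.

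Between the terms, after repair only, 13 of 17 folding and modification genes fell, as did 10 of 12 cleavage and cross-linking genes, 9 of 16 assembly partners, 9 of 10 breakdown and uptake genes and 5 of 7 fibril-associated collagens, beside the 27.9% of all genes that were called lower. Of 14 TGF-beta genes 3 fell and 2 rose. With the gel 8, 11, 10, 8 and 6 of the same lists fell, beside 26.5% of all genes, while 1 folding gene and 1 assembly partner rose, and 4 TGF-beta genes fell and 3 rose. SERPINH1, which encodes the procollagen chaperone HSP47, fell by 2.55 after repair only (SE 0.42, adjusted p = 2.04e-05).

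Between the terms COL2A1, the fibrillar collagen of cartilage, differed in the opposite direction from the 7 genes. It had 6.98 to 63.4 CPM in long-term repair-only and 6.60 to 10.8 CPM in long-term gel muscle, against 0.0665 to 1.27 CPM in short-term repair-only and 0.0717 to 0.397 CPM in short-term gel muscle. The log2 differences of long to short term were 5.65 after repair only (SE 0.61) and 5.68 with the gel (SE 0.64), at adjusted p-values of 9.08e-09 and 2.67e-08 in edgeR. Uninjured long-term muscle held 4.07 to 16.4 CPM of COL2A1 as well, and injury-only short-term muscle 0 to 0.372 CPM. All long-term groups thus lay above all short-term groups, whatever the treatment. A difference in time and one in sequencing cannot be told apart here.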

How the data were processed

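Per the labels' protocols, a commercial laboratory extracted the RNA and built the libraries. The authors deposited a file of counts for each library, as whole numbers without normalization. STAR, edgeR and OryCun2.0 appear in the submitters' processing notes. How reads were counted, and whether strand was used, is not given in the sources used here; overlapping genes therefore cannot be told apart. COL5A2 and COL3A1 are neighbours in the RefSeq table of mOryCun1.1, another assembly that served for gene names only. No transcript length, coordinate or sequence is given.

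Each file held 18210 entries; 26 with names turned into dates were left out and 7 repeated symbols were summed. Of 91 pairs of libraries within groups 0 were identical. The 7 genes, the gene lists and the rule for named genes (all 7 genes, the counts of each list, up to 3 called genes of a list with the smallest adjusted p, and the 5 most alike genes) were chosen with earlier results of these data known.

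The test was edgeR 4.0.16 in R 4.3.3 (TMM, filterByExpr by group, robust quasi-likelihood fit, 2-sided, Benjamini-Hochberg over all genes, 0.05). Fits held the 14 short-term libraries (13526 genes), the 20 long-term libraries (11605 genes) or, between terms, all 34 (12935 genes). Log2 differences are first group minus second. Ratios and differences within animals used counts plus 0.5, and correlations used CPM plus 0.05 with 100000 permutations. The tests were tried on simulated counts.

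Animal codes in the files' names pair each long-term operated muscle with an uninjured one. Deviations from group means correlated above 0.1 in 6 of 10 pairs. The range was -0.03 to 0.383 for repair only and -0.246 to 0.184 for the gel. Muscles with different codes were not compared in this way, so these values cannot show that the codes pair animals. Alternatives were DESeq2 1.42.0, its size factors in edgeR, limma 3.58.1 (voom with sample quality weights), no filter, other offsets, only the groups compared, replicate blocks and each library left out. The pair of injury-only replicate 3 and short-term repair-only replicate 4 was left out because earlier results of these data showed them apart from their groups. Library totals without TMM, fits without both short-term repair-only replicate 5 and injury-only replicate 3, and the animal block without long-term repair-only replicate 4 were chosen after seeing the data.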

Additional observations from a re-analysis of the deposited data

Results flagged for a closer look

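Levels of the 7 genes and the 6 ratios were looked at in each of the 6 groups, 78 sets of values in all, for a library far from the others of its group. Chance marks about 1 in 20 such sets. There were 4 marked, all of them ratios, which is about as many as chance alone would mark. The ratio of COL1A1 to COL3A1 was 2.34 in long-term repair-only replicate 4 and 0.413 to 0.596 in the other 4 libraries. The ratio of COL5A1 to COL5A2 was 2.53 in long-term gel replicate 1 and 0.859 to 0.958 in the others. The ratio of COL1A1 to COL1A2 was 0.507 in short-term repair-only replicate 4 and 1.03 to 1.28 in the others. The ratio of COL5A3 to COL5A1 was 1.15 in injury-only replicate 3 and 2.07 to 2.24 in the others.

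Long-term repair-only replicate 4 also had the highest tenocyte marker sum of its group, 726 CPM, and injury-only replicate 3 of its own, 1685 CPM. Short-term repair-only replicate 4 had the lowest such sum of its group, 45.6 CPM. Long-term gel replicate 1 was at neither end of its group, with 68.0 CPM in a range of 37.8 to 90.2 CPM. The part of these values in the ratios was not tested.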

How the results depend on the processing

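Of the values recomputed under each alternative, 1182 log2 differences of the 7 genes kept their direction and their side of the threshold, 28 lost and 33 gained a call, and 24 changed sign; of the ratios 659 kept both and 25 changed sign. The counts of genes called that moved by over 1.5 times were these. Repair only against injury only in the short term gave 3 by DESeq2, 6 by voom and 7 without injury-only replicate 3 and repair-only replicate 4, the library highest and the library lowest in the 7 genes of their groups. The gel against injury only gave 5 by voom and 2 without those libraries. Long-term repair only against uninjured muscle gave 1 in edgeR, 3 by DESeq2, 0 by voom, 0 with only the groups compared and 0 to 3 with 1 library left out.

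With a replicate block by animal code it gave 0, also without repair-only replicate 4, and with a block by title number 0. The title-number block left 1 of 7 for long- against short-term repair only and gave -0.0609 for COL5A3 in repair only against injury only; title numbers do not pair animals. Under the animal block the ratio of COL5A3 to COL5A1 was -0.0019 for repair only and 0.0696 for the gel against uninjured muscle. It changed no other call of the 7 genes.

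The other changes of sign were these. For the gel against injury only, COL5A3 was 0.30 by voom, 0.18 without injury-only replicate 3 and either repair-only replicate 4 or 5, and -0.30 to 0.18 with 1 library left out, and COL11A1 was -0.17 with library totals and -0.46 to 2.47 with 1 library left out. For the gel against uninjured muscle, with library totals COL5A1 was -0.0183 and COL5A3 -0.0149, COL5A2 was 0.15 by voom, and with 1 library left out COL3A1 ran from -0.0161 to 0.38, COL5A1 from -0.0308 to 0.25 and COL5A2 from -0.19 to 0.0253. For the gel effect between terms COL1A1 was -0.15 by voom, and with 1 library left out COL1A1 ran from -0.45 to 1.72, COL1A2 from -0.18 to 1.61, COL5A2 from -0.28 to 1.16, COL5A3 from -0.0223 to 0.96 and COL11A1 from -2.39 to 1.02.

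Log2 ratios with 1 library left out ran as follows. For the gel against repair only in the short term, COL1A1 to COL3A1 ran from -0.35 to 0.22, COL1A1 to COL1A2 from -0.17 to 0.16, COL5A1 to COL1A1 from -0.0816 to 0.64, COL5A1 to COL5A2 from -0.0238 to 0.21 and COL5A3 to COL5A1 from -0.0458 to 0.44. For the gel against uninjured muscle, COL1A1 to COL3A1 ran from -0.17 to 0.14, COL5A1 to COL5A2 from -0.0679 to 0.32 and COL5A3 to COL5A1 from -0.19 to 0.0899. For long- against short-term repair only, COL1A1 to COL3A1 ran from -0.27 to 0.38 and COL5A1 to COL5A2 from -0.20 to 0.0312. COL5A3 to COL5A1 ran from -0.0038 to 0.20 for repair only against uninjured muscle, and COL11A1 to COL5A1 from -0.26 to 0.68 for the gel against injury only. The causes were not tested.

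With library totals in place of TMM the median of all genes was -0.235 for the gel against repair only in the short term and 0.386 for repair only against injury only, and -0.452 for repair only and -0.43 for the gel in the long against the short term. The number of the 7 genes called was the same in each of the 8 comparisons. COL11A1 had 1 to 19 counts in the long-term gel libraries.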
